A study of Xenopus laevis with 46 samples.

Results

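Embryos of Xenopus laevis, a frog in which β-catenin on the future dorsal side starts the body axis, were depleted of β-catenin with a morpholino and compared with control embryos at stage 9, the late blastula. The comparison rests on 4 of the 46 libraries of the series. Library bCatMO 1 was paired with control library 4 and bCatMO 2 with control library 5, because the labels name these controls as of the same batch. Rows of the deposited table entered the test where at least 2 of these 4 libraries reached 1 RPKM (reads per kilobase of gene model, scaled to the size of the library), which left 17026 of 37005 rows.

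All embryos were of the Nasco strain, were collected whole and gave polyA-selected RNA. The morpholino was injected at the 2- to 4-cell stage. The labels give neither its sequence nor its dose, and they name no injection for the control embryos. Of the other stage 9 libraries, 3 further controls gave the spread between batches. The libraries of embryos treated with lithium chloride at the 32-cell stage (LiCl, 2), injected with siamois mRNA (Sia, 2), Wnt8 mRNA (3) or Cerberus mRNA (Cer, 3) shared the estimate of the residual spread. LiCl and Sia libraries belonged to the same 2 batches as the bCatMO libraries. The labels do not say that replicates came from separate clutches, and p-values therefore reflect no more than the spread among these libraries, which may be technical.

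β-catenin is both a component of cell junctions and the coactivator of canonical Wnt signalling. Maternal Wnt signalling stabilises it in dorsal cells of the cleaving frog egg, and with Tcf factors it switches on siamois, twin and the early Nodal ligands as zygotic transcription begins. Their products help set up the Spemann organizer, which secretes antagonists of BMP, Wnt and Nodal ligands and directs the formation of the body axis.

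Reads assigned to genes, recovered from the RPKM values, numbered between 30.2 M and 39.2 M in the 4 libraries and from 27.9 M to 58.5 M over the 17 libraries of stage 9. Libraries of the same group differed by far more than counting noise, with a chi-square per degree of freedom of 69.9 between control libraries 4 and 5 and of 65.4 between the bCatMO libraries. The labelled tissue was checked with marker rows. Summed RPKM of genes switched on at the midblastula transition (11 of 13 rows at 1 RPKM or more) was 336 and 149 in the controls and 197 and 127 in their bCatMO partners, and animal cap genes (9 of 10 rows) summed to between 513 and 598 in all 4 libraries. For the maternal vegetal markers only vegt and gdf1 were searched, and 1 row, gdf1.1, was in the table. It stood at 0 in 3 of the 4 libraries and at 0.277 RPKM in control library 5. This row does not show that vegetal maternal RNA was absent. Rows of the longer germ plasm and vegetal list varied widely, with 151 and 92.6 RPKM of velo1.L and 0.296 and 1.03 RPKM of piwil1.L in controls 4 and 5. Markers of tissues that a blastula lacks were low. Ciliated cell rows summed to at most 5.72, neuron rows to at most 3.83, muscle rows to at most 6.05 and blood rows to at most 0.0561 RPKM in any of the 4 libraries.

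The targeted transcript was examined first. Row Xelaev18031149m of ctnnb1, which encodes β-catenin, held 246 and 224 RPKM in controls 4 and 5 and 208 and 194 RPKM in bCatMO 1 and 2 (log2 fold change -0.22 ± 0.07, standard error of limma's fit; adjusted p = 0.37). Its second row, Xelaev18033202m, held 242 and 255 RPKM in the controls and 234 and 258 RPKM in the bCatMO libraries (-0.01 ± 0.07, adjusted p = 1.00). Neither row passed the test, although both bCatMO libraries lay below all 5 controls (224 to 260 RPKM) in row Xelaev18031149m and overlapped them in the other. At stage 10.5, described further on, row Xelaev18031149m was called lower (-0.55, adjusted p = 7.5e-06). The labels do not say whether the morpholino targets translation or splicing, and since one against translation can leave RNA levels as they were, these values do not check the labels.

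In all, 132 of 17026 rows passed an adjusted p of 0.05 by limma, which is 0.775% of the rows tested. Of these, 93 were lower (0.546%) and 39 higher (0.229%), and the median log2 fold change over all rows tested was -0.00. The fall reached 2-fold in 50 rows and the rise reached 2-fold in 12. Every called row moved the same way in both batch pairs. Both bCatMO libraries lay below all 5 controls for 76 of the 93 lower rows, against 3.67% of all rows tested, and above all 5 for 30 of the 39 higher rows, against 2.63%. The calls were made from these same pairs. Equal signs, and values outside controls 4 and 5, are therefore largely expected of called rows and are not separate support. The count of calls depended on the batch term and on each library. Without the batch block 51 rows passed, and when control 4, bCatMO 2, control 5 or bCatMO 1 was left out 51, 59, 66 and 76 rows passed. Fold changes are differences of log2(RPKM + 0.5), a scale that understates the change of rows near 0. The tables pair some rows with a gene name only through the best match in the row's description, and these rows are called matches here. Rows of near-identical copies (nodal3, nodal5, siamois, chordin and many homeologs) can share reads, so a value for a single copy is uncertain. In whole embryos fewer cells making a transcript and less of it per cell cannot be told apart.

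**Figure D1:**
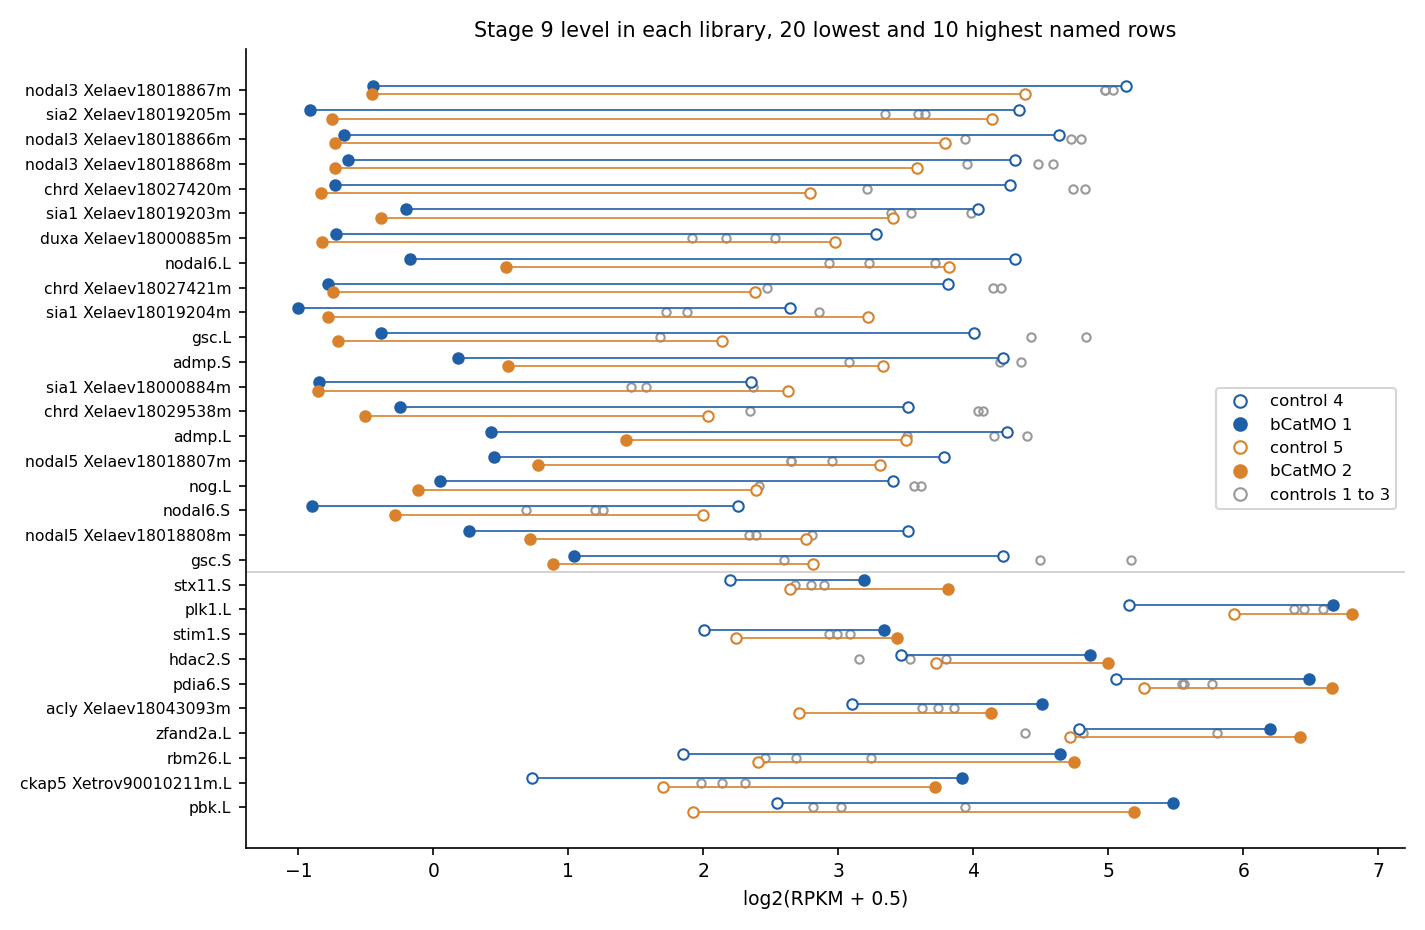
Level of the 20 named rows that fell most and the 10 that rose most, on the x axis as log2(RPKM + 0.5), in each stage 9 control and bCatMO library; coloured lines join the libraries of one batch, open circles are controls (grey, the 3 controls of other batches) and filled circles bCatMO. In nodal3 row Xelaev18018867m the filled circles stand for 0.235 and 0.231 RPKM and the open ones for 34.6 and 20.4 RPKM, and in pbk.L the order is turned, with 44.1 and 36.1 RPKM in bCatMO against 5.34 and 3.3 RPKM.

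The early targets of β-catenin fell most. Of 18 rows of the nodal3, nodal5, nodal6, siamois and twin genes, 15 were tested, and 13 of them were lower in bCatMO, against 0.546% of all rows. The median of the 15 was -3.34 on the log2 scale. The 3 rows under the filter were not tested.

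Siamois (sia1) and twin (sia2) encode homeobox activators of organizer genes and are direct targets of β-catenin and Tcf. The sia2 row Xelaev18019205m held 19.7 and 17.1 RPKM in controls 4 and 5 and 0.0316 and 0.0932 RPKM in bCatMO 1 and 2. Both bCatMO libraries lay far below all 5 controls, the lowest of which held 9.67 RPKM. The log2 fold change was -5.07 ± 0.17 with an adjusted p of 5.1e-08. That loss rests on 1101 reads in the 2 controls against 4 reads in the 2 bCatMO libraries, a ratio per read of depth of 291 with an exact 95% counting interval of 114 to 1072. Counting intervals here cover counting error only.

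The 3 sia1 rows gave the same picture. Row Xelaev18019203m held 15.9 and 10.1 RPKM in the controls and 0.37 and 0.262 RPKM in bCatMO (-4.02 ± 0.24, adjusted p = 6.5e-06). Row Xelaev18019204m held 5.73 and 8.82 RPKM in the controls, was at 0 in bCatMO 1 and held 0.0814 RPKM in bCatMO 2. Its 516 control reads stood against 3 bCatMO reads, a ratio of 182 with an interval of 62.0 to 886. Row Xelaev18000884m held 4.6 and 5.68 RPKM in the controls and 0.0545 and 0.0535 RPKM in bCatMO (-3.34 ± 0.21, adjusted p = 6.5e-06). In none of the 3 did the groups overlap.

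A further row, Xelaev18000885m, had human DUXA, a double homeobox protein, as its best match, and behaved like the siamois rows. It held 9.22 and 7.35 RPKM in controls 4 and 5 and 0.107 and 0.0632 RPKM in bCatMO 1 and 2 (-3.90 ± 0.22, adjusted p = 5.5e-06). The groups did not overlap, and 725 control reads stood against 8 bCatMO reads, a ratio of 96.0 with an interval of 48.4 to 223.

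Nodal3 encodes a divergent Nodal ligand of the dorsal embryo that does not induce mesoderm. Row Xelaev18018867m held 34.6 and 20.4 RPKM in controls 4 and 5 and 0.235 and 0.231 RPKM in bCatMO 1 and 2, or 0.679% and 1.13% of the paired control. Its log2 fold change was -5.21 ± 0.29 (adjusted p = 5.5e-06). Row Xelaev18018866m went from 24.3 and 13.3 RPKM to 0.131 and 0.103 RPKM (-4.91 ± 0.28), and row Xelaev18018868m from 19.3 and 11.5 RPKM to 0.145 and 0.102 RPKM (-4.63 ± 0.33). All 3 rows were nearly lost in both bCatMO libraries.

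Nodal5 and nodal6 encode the earliest mesendoderm-inducing Nodal ligands, which need the vegetal T-box factor VegT and are enhanced by β-catenin. nodal6.L held 19.3 and 13.6 RPKM in controls 4 and 5 and 0.386 and 0.949 RPKM in bCatMO 1 and 2 (-3.88 ± 0.26, adjusted p = 1.4e-05). nodal6.S held 4.28 and 3.5 RPKM in the controls and 0.0362 and 0.32 RPKM in bCatMO (-2.72 ± 0.22, adjusted p = 5.2e-05). Both rows lay below all 5 controls, and the drop was deeper in the batch 4 pair.

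More nodal5 transcript was kept. Row Xelaev18018807m held 13.2 and 9.39 RPKM in the controls and 0.867 and 1.21 RPKM in bCatMO, or 6.55% and 12.9% of the paired control (-2.93 ± 0.22, adjusted p = 3.1e-05). Rows Xelaev18018808m, Xelaev18018806m and Xelaev18018805m had log2 fold changes of -2.65 ± 0.24, -2.33 ± 0.21 and -1.81 ± 0.22. In the last of these 1.44 and 1.72 RPKM remained of 8.25 and 5.55 RPKM. Rows Xelaev18018801m and Xetrov90009422m.L, with at most 1.34 RPKM in any control, did not pass (-0.84, adjusted p = 0.29, and -0.77, adjusted p = 0.86).

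The secreted factors of the organizer came next in size. The list of organizer antagonists and related secreted factors held 40 rows, of which 23 were tested. Of these, 10 were lower and 0 higher, against 0.546% and 0.229% of all rows, with a median of -1.34. Another 17 rows were under the filter.

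Chordin binds BMP ligands and keeps them from their receptors. Its row Xelaev18027420m held 18.8 and 6.43 RPKM in controls 4 and 5 and 0.102 and 0.0617 RPKM in bCatMO 1 and 2 (-4.31 ± 0.35, adjusted p = 5.8e-05). Row Xelaev18027421m went from 13.6 and 4.71 RPKM to 0.0824 and 0.0971 RPKM (-3.86 ± 0.36, adjusted p = 0.00017), and row Xelaev18029538m from 11 and 3.6 RPKM to 0.341 and 0.203 RPKM (-3.16 ± 0.43, adjusted p = 0.0039). The bCatMO libraries lay below all 5 controls in each row. The controls differed among themselves, since chordin was lower in control 5 than in control 4. The third row lost its call without control 4 (adjusted p = 0.11), without bCatMO 1 (0.078) and when the reads were tested with voom (0.058).

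Noggin, another BMP antagonist, fell as well. nog.L held 10.1 and 4.75 RPKM in the controls and 0.537 and 0.425 RPKM in bCatMO (-2.93 ± 0.31, adjusted p = 0.00043), and nog.1 held 4.77 and 2.18 RPKM against 0.328 and 0.271 RPKM (-2.23 ± 0.34, adjusted p = 0.0075). In both rows the bCatMO libraries stood below all 5 controls.

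Admp is a BMP-family ligand made in the organizer itself. admp.S held 18.2 and 9.56 RPKM in controls 4 and 5 and 0.634 and 0.969 RPKM in bCatMO 1 and 2 (-3.41 ± 0.32, adjusted p = 0.00016). admp.L held 18.5 and 10.8 RPKM in the controls and 0.844 and 2.19 RPKM in bCatMO (-2.95 ± 0.39, adjusted p = 0.0027). Both fell below all 5 controls. The call of admp.L was lost without control 4 (adjusted p = 0.094).

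Cerberus blocks Nodal, BMP and Wnt ligands, Dkk1 blocks Wnt co-receptors, and Lefty is a feedback inhibitor of Nodal. cer1.S was still low at this stage, with 3.44 and 1.5 RPKM in controls 4 and 5 and 0.0537 and 0.0352 RPKM in bCatMO 1 and 2 (-2.36 ± 0.36, adjusted p = 0.0078). lefty.S held 9.48 and 7.76 RPKM in the controls and 0.91 and 1.45 RPKM in bCatMO (-2.45 ± 0.40, adjusted p = 0.012). dkk1.S kept more, with 5.22 and 4.42 RPKM in the controls and 1.44 and 1.76 RPKM in bCatMO (-1.34 ± 0.25, adjusted p = 0.033). None of the 3 overlapped the controls. For cer1.S the reads were 249 in the controls against 5 in bCatMO, a ratio of 52.7 with an interval of 22.3 to 164.

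Several listed factors did not pass. lefty.L held 29.3 and 14.1 RPKM in the controls and 5.82 and 5.11 RPKM in bCatMO (-1.81, adjusted p = 0.15). frzb.S, a secreted Wnt antagonist, stood at -1.48 (adjusted p = 0.13) and pnhd.L at -1.21 (adjusted p = 0.097) on the log2 scale. dkk1.L held 4.45 and 4.24 RPKM in the controls and 3.47 and 3.13 RPKM in bCatMO (-0.35, adjusted p = 0.99). The sfrp2, bmp2, ism1 and shisa2 rows of the list lay between -0.04 and 0.18 and did not pass. Members of the antagonist list therefore ranged from near loss to no detectable difference.

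Of 24 rows of organizer transcription factors 15 were tested, with a median of -0.32. Of these, 3 were lower and 0 higher, against 0.546% and 0.229% of all rows. Goosecoid, a homeobox repressor of ventral genes that siamois activates, and foxa4, a forkhead factor of the dorsal midline, were the ones that fell. gsc.L held 15.6 and 3.9 RPKM in controls 4 and 5 and 0.265 and 0.111 RPKM in bCatMO 1 and 2 (-3.62 ± 0.48, adjusted p = 0.0027). gsc.S held 18.1 and 6.52 RPKM in the controls and 1.55 and 1.34 RPKM in bCatMO (-2.55 ± 0.33, adjusted p = 0.0022). foxa4.L held 44.5 and 14.7 RPKM against 5.69 and 2.83 RPKM (-2.53 ± 0.36, adjusted p = 0.0047). All 3 lay below the 5 controls, although gsc.L ranged from 2.7 to 28.0 RPKM among those controls.

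The goosecoid calls depended on the setting. gsc.L did not pass without control 4 (adjusted p = 0.085), without bCatMO 1 (0.065) or with voom on the reads (0.064), and gsc.S did not pass without control 4 (0.061), without bCatMO 1 (0.057) or without the batch block (0.088). foxa4.S, at -1.87 ± 0.40, had an adjusted p of 0.069. The notochord homeobox rows not.S and not.L had log2 fold changes of -0.50 and -0.32, otx1.L had -0.09 and a hesx1 match, Xelaev18001776m, had 0.59, none past the test. not.S held 75.4 and 56.9 RPKM in the controls and 40.9 and 52.1 RPKM in bCatMO. Within this list the loss at stage 9 was thus called for goosecoid and foxa4.L and for no row of not, otx1, pou3f2, lmo4 or ldb1.

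**Figure D2:**
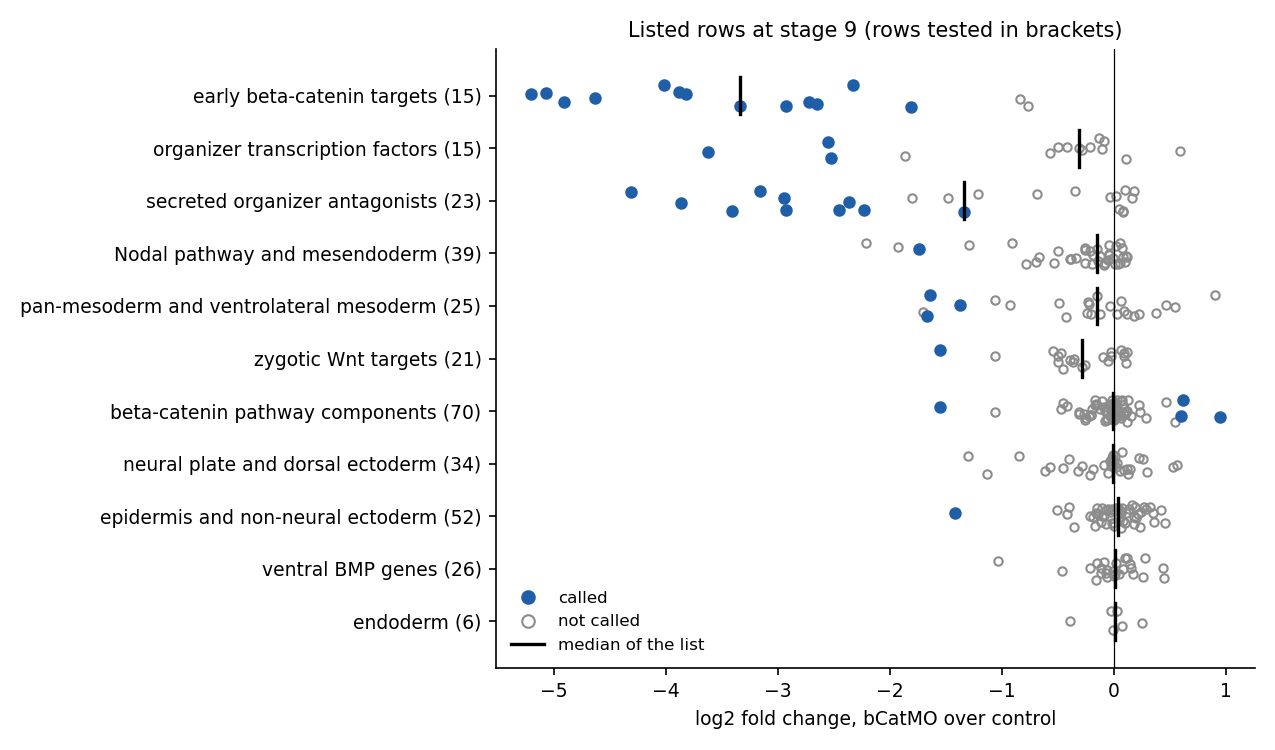
Log2 fold change (x axis, bCatMO over control) of each listed row tested at stage 9, by gene list, with called rows filled and the median of each list as a bar. The early targets have a median of -3.34 and the secreted factors of -1.34, while the ventral BMP genes (0.01), endoderm (0.01) and neural plate genes (-0.01) lie at 0.

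Among Nodal pathway and mesendoderm genes the test called 1 of 39 rows tested (50 listed), against 0.775% of all rows, with a median of -0.15. nodal2.L, a mesendoderm-inducing Nodal ligand, held 9.64 and 4.32 RPKM in controls 4 and 5 and 1.6 and 1.59 RPKM in bCatMO 1 and 2 (-1.74 ± 0.32, adjusted p = 0.029). Its bCatMO values overlapped the 5 controls, the lowest of which held 1.48 RPKM. eomes.S, a T-box factor of the mesendoderm, held 26.4 and 7.88 RPKM against 5.73 and 1.18 RPKM (-2.22 ± 0.47) without passing (adjusted p = 0.063). eomes.L (-1.92, adjusted p = 0.085) and nodal1.L (-1.30, adjusted p = 0.092) did not pass either. The homeobox gene mixer.L had 18.5 and 5.43 RPKM in the controls and 8.76 and 2.95 RPKM in bCatMO (-0.91, adjusted p = 0.99), and the nuclear Nodal effector foxh1.L stood at 0.10.

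The list of pan-mesodermal and ventrolateral genes had a median of -0.15 over 25 rows tested (52 listed). Of these, 3 were lower and 0 higher, against 0.546% and 0.229% of all rows. The lower rows were mespb.L (-1.67 ± 0.29, adjusted p = 0.019) and mespa.L (-1.37 ± 0.26, adjusted p = 0.031), bHLH factors of the presomitic mesoderm, and the ligand gene fgf20.S (-1.64 ± 0.25, adjusted p = 0.0073). All were low: mespb.L held 1.54 and 1.09 RPKM in the controls and 0.0231 and 0.114 RPKM in bCatMO, and fgf20.S held 2.59 and 1.99 RPKM against 0.451 and 0.333 RPKM. For mespb.L 106 control reads stood against 6 bCatMO reads, a ratio of 18.7 with an interval of 8.32 to 52.1. The bCatMO libraries lay below all 5 controls in these 3 rows. Brachyury, row t.S, held 3.7 and 1.57 RPKM in the controls and 1.96 and 0.473 RPKM in bCatMO and did not pass (-0.93, adjusted p = 0.92). myod1.L, a myogenic factor, had a positive value that did not pass (0.91, adjusted p = 0.075).

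The list drawn up for genes with mainly zygotic Wnt input gave 1 lower row of 21 tested (53 listed), against 0.546% of all rows, with a median of -0.29. The lower row was the fzd8 match Xelaev18030716m, a Wnt receptor gene, with 7.13 and 4.63 RPKM in controls 4 and 5 and 1.78 and 1.5 RPKM in bCatMO 1 and 2 (-1.55 ± 0.28, adjusted p = 0.022). The other fzd8 rows of the list, fzd8.L (-1.07, adjusted p = 0.58) and fzd8.S (-0.48), did not pass, although both lay below all 5 controls. In LiCl row Xelaev18030716m stood at -0.47 without passing, and in Sia it was higher (2.89). The fzd8 rows also belong to the authors' signature, described further on, so this call says little about zygotic Wnt targets. sp5l.L (-0.50), hoxd1.L (-0.50) and the nkd1, dact1 and znrf3 rows did not pass. Components of the β-catenin pathway had a median of -0.01 over 70 tested rows (100 listed). Row Xelaev18030716m was the 1 lower row among them and 3 were higher, against 0.546% and 0.229% of all rows. Those 3 were ctnnbip1.S, which encodes an inhibitor of the binding of β-catenin to Tcf, with 15.4 and 15.7 RPKM in the controls and 23.8 and 24.3 RPKM in bCatMO (0.62 ± 0.11, adjusted p = 0.025), and both homeologs of the histone demethylase gene kdm6a (0.95 for .L and 0.60 for .S).

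Outside the dorsal mesendoderm few listed rows moved. None of 26 tested ventral BMP genes (53 listed), of 6 endoderm rows (30 listed) or of 34 neural plate rows (61 listed) passed, and their medians were 0.01, 0.01 and -0.01. The ventral msx1.S had -1.03 (adjusted p = 0.22), and the ventral ligand rows wnt8a.L and wnt8a.S had 0.46 and 0.54 without passing. wnt8a.L held 24.6 and 12.4 RPKM in the controls and 31.4 and 18.6 RPKM in bCatMO. Among neural plate rows the lowest was hes3-like.L (-1.30, adjusted p = 0.092). Of 52 tested epidermal and non-neural rows (76 listed) 1 was lower, the hes5 match Xelaev18037605m, a Notch-responsive repressor gene, at -1.42 ± 0.24 (adjusted p = 0.015). Over all rows 0.775% passed, so a count of 0 or 1 in lists of this size says little about a list.

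Lists for cell state showed 0 or 1 called rows, apart from the cell cycle list. Counts are read here against 0.546% of all rows lower and 0.229% higher. Of 73 tested cell cycle rows (79 listed) 0 were lower and 4 higher, namely pbk.L, plk1.L, plk1.S and aurkb.L, with a list median of 0.02. Of 38 heat shock and unfolded protein rows (48 listed) 1 was higher, zfand2a.L. No row passed among 44 p53 and DNA damage rows (60 listed), 14 innate immune rows (58 listed), 33 germ plasm rows (41 listed) or 11 rows of ciliated cell, neuronal, muscle and blood markers (68 listed). Of 147 ribosomal protein rows (153 listed) an rpl7 match, Xelaev18003627m, was lower (-0.75), and of 63 reference rows (74 listed) an eif4a1 match, Xelaev18001058m, was lower (-0.72). At these shares a count of 0 or 1 in lists of this size says little about a list.

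The authors' signature table, drawn from stage 10.5 libraries of the same series, lists 123 rows that could be found at stage 9. Of the 59 tested, 24 were lower and 0 higher, against 0.546% and 0.229% of all rows, with a median of -0.72. Both bCatMO libraries lay below all 5 controls in 29, against 3.67% of all rows. Because the authors chose these genes with β-catenin depletion in view, these counts are not independent evidence of their direction. Among them were 2 rows matched to kazald1, which encodes a secreted IGF-binding-like protein. Row Xelaev18003703m held 6.88 and 1.81 RPKM in controls 4 and 5 and 0.386 and 0.38 RPKM in bCatMO 1 and 2 (-2.23 ± 0.32, adjusted p = 0.0050), and row Xelaev18003702m had -2.07 ± 0.30 (adjusted p = 0.0064). The bCatMO libraries lay below all 5 controls in both.

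The dorsal lists, the Nodal list and the signature together accounted for 31 of the 93 lower rows. Their median log2 fold change was -2.93. In the batch 4 pair their median level in bCatMO was 4.55% of the control and in the batch 5 pair 10.1%, and 15 of the 31 rows were under 10% in both. The fall was larger in the batch 4 pair for 29 of the 31. Control 4 also exceeded control 5 in 28 of the 31, against 54.5% of all rows tested. Whether the higher starting level bears on the larger fall was not tested.

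The batches also held LiCl and Sia libraries, measured against the same controls 4 and 5, so the comparisons are not independent and their values are only set side by side. LiCl inhibits the kinase that marks β-catenin for destruction. Of the 15 early target rows tested, 5 were higher in LiCl and 0 lower, against 0.0881% of all rows higher and 0.441% lower, and the LiCl median of the list was 1.15, beside -3.34 in bCatMO. The sia1 rows Xelaev18019204m and Xelaev18000884m both rose by 2.68 in LiCl (adjusted p = 0.0011 and 0.00058), sia2 row Xelaev18019205m by 1.46 ± 0.17 (adjusted p = 0.0084) and the DUXA match Xelaev18000885m by 1.72 (adjusted p = 0.011). The nodal3 rows Xelaev18018866m and Xelaev18018868m, at 1.28 and 1.64, did not pass in LiCl (adjusted p = 0.088 and 0.057). The antagonist list had a LiCl median of 0.08 with 0 rows higher, and chordin row Xelaev18027420m stood at 0.03 in LiCl (adjusted p = 1.00). In LiCl admp.S and admp.L had 0.84 and 0.94 without passing (adjusted p = 0.50 and 0.58).

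Siamois lies downstream of β-catenin. In Sia embryos sia1 row Xelaev18019203m, where injected and endogenous siamois RNA cannot be told apart, was the 1 early target row called higher (5.53), against 0.117% of all rows higher and 0.0117% lower. The early target list had a Sia median of -0.04, and sia2 (-0.48), nodal6.L (-0.17) and nodal5 row Xelaev18018807m (-0.04) did not pass. The nodal3 rows had positive values in Sia that did not pass either. These were 1.26 for Xelaev18018867m (adjusted p = 0.30), 0.89 for Xelaev18018866m (adjusted p = 0.93) and 0.62 for Xelaev18018868m. Among the antagonists 4 of 23 rows were higher, including chordin row Xelaev18027420m at 2.66 (adjusted p = 0.011) and admp.S at 2.58 (adjusted p = 0.0069). The fzd8 match Xelaev18030716m rose by 2.89 (adjusted p = 0.00088) and the kazald1 matches Xelaev18003703m and Xelaev18003702m had 2.49 and 2.66 in Sia. Thus the rows lost in bCatMO had different values in the other treatments. The siamois rows, twin, nodal6.S and the DUXA match were raised by LiCl. Chordin rows Xelaev18027420m and Xelaev18027421m, both admp rows and the fzd8 match were raised by siamois mRNA. Row Xelaev18019203m of sia1 was called higher in both treatments. The third chordin row, Xelaev18029538m, did not pass in Sia (1.86, adjusted p = 0.30). Whether the LiCl and Sia effects on a row differ from each other was not tested.

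**Figure D3:**
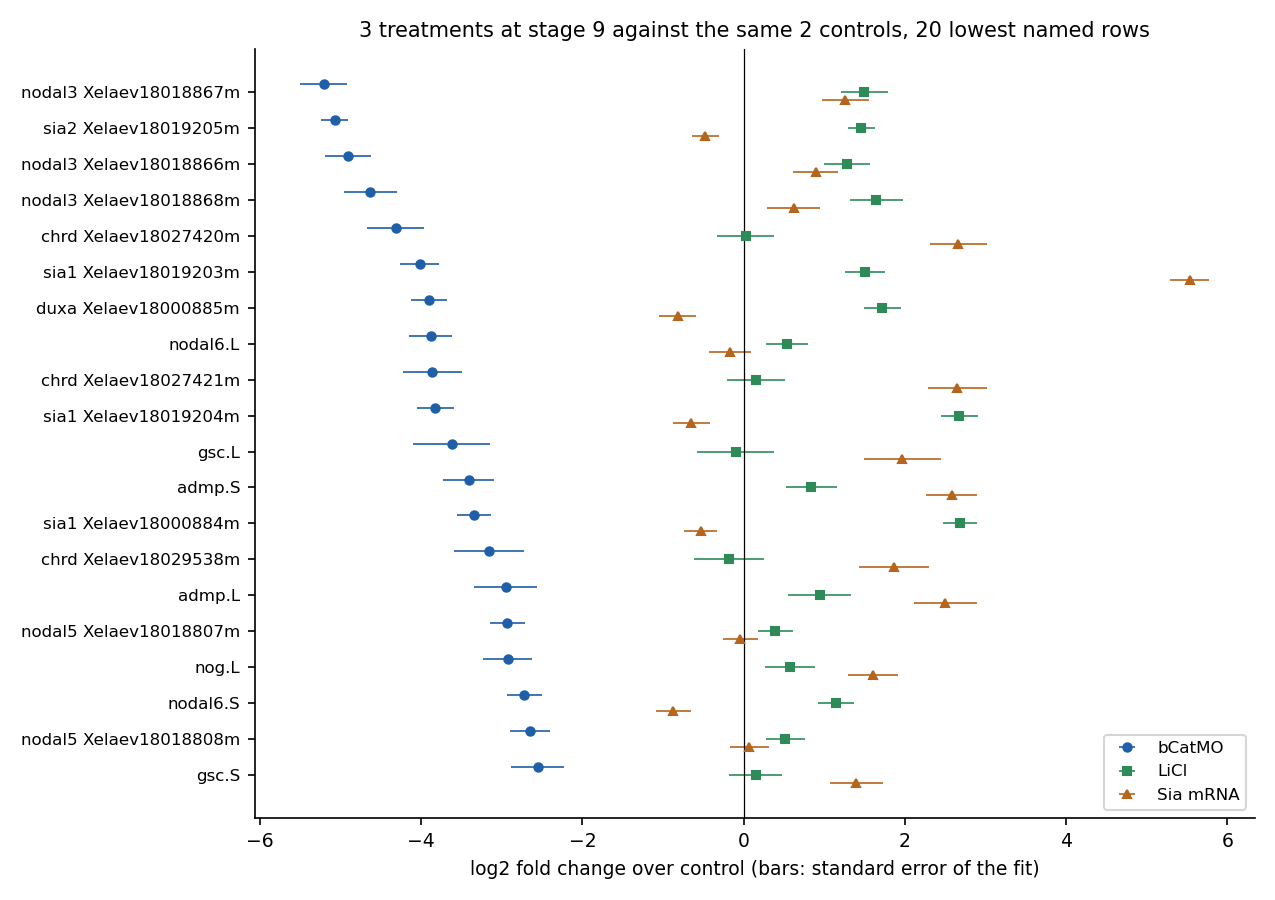
Log2 fold change over control (x axis; bars are the standard error of the fit) of the 20 named rows that fell most in bCatMO (circles), with the values of LiCl (squares) and siamois mRNA (triangles) against the same controls. sia2 row Xelaev18019205m shows -5.07 in bCatMO, 1.46 in LiCl and -0.48 in Sia, and chordin row Xelaev18027420m shows -4.31, 0.03 and 2.66.

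A second group of lower transcripts lay outside the dorsal lists. These 62 rows, among them the DUXA match, had a median log2 fold change of -0.77, a median control level of 25.2 RPKM and kept a median of 59.4% of the control in the batch 4 pair and 53.2% in the batch 5 pair. Over all rows tested the median control level was 9.98 RPKM. The rows described next were chosen after their values were seen. The match to ARPC2, a subunit of the actin-nucleating Arp2/3 complex (row Xelaev18044424m), held 36.8 and 38.5 RPKM in controls 4 and 5 and 5.94 and 12.2 RPKM in bCatMO 1 and 2 (-2.08 ± 0.20, adjusted p = 0.00020). It overlapped the controls of other batches, which went down to 5.46 RPKM. psenen.S, a γ-secretase subunit gene, held 7.59 and 8.14 RPKM in the controls and 1.57 and 1.89 RPKM in bCatMO (-1.91 ± 0.16, adjusted p = 5.6e-05), with no overlap.

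cdc34.L, which encodes a ubiquitin-conjugating enzyme, held 52.9 and 61.6 RPKM in the controls and 21.3 and 27.6 RPKM in bCatMO (-1.22 ± 0.10, adjusted p = 6.4e-05). The proteasome assembly gene psmd9.L held 5.24 and 5.03 RPKM in the controls and 1.77 and 1.24 RPKM in bCatMO (adjusted p = 0.0095). The ubiquitin ligase gene siah1.L fell by 1.14 (adjusted p = 0.031), the proteasome subunit gene psma6.L by 0.99 (adjusted p = 0.0019) and ufd1l.S by 0.99 (adjusted p = 0.00020). Both homeologs of the ubiquitin-conjugating enzyme gene ube2h fell, by 1.07 for .S and by 0.96 for .L. The homeologs psmd9.S (0.22), siah1.S (-0.21), ufd1l.L (0.05), cdc34.S (0.07) and psma6.S (-0.94) did not pass. What share of all ubiquitin and proteasome genes was called was not counted. cdc34.L, psmd9.L, siah1.L, psma6.L and ufd1l.S all lay below the 5 controls. A CENPH match, LOC100491826-like.L, fell by 1.85 (adjusted p = 0.0013), the galectin gene lgals3.L by 1.12 (adjusted p = 0.0027) and the elongation factor gene supt6h.S by 1.08 (adjusted p = 0.00038). Unnamed rows Xelaev18003951m and Xelaev18003950m fell by more than the ARPC2 match and psenen.S, with -2.38 and -2.34.

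The 39 higher rows had a median log2 fold change of 0.76. pbk.L, which encodes a kinase of dividing cells, rose most, with 5.34 and 3.3 RPKM in controls 4 and 5 and 44.1 and 36.1 RPKM in bCatMO 1 and 2 (3.099 ± 0.181, adjusted p = 5.5e-06). The match to CKAP5, a microtubule polymerase, row Xetrov90010211m.L, held 1.16 and 2.74 RPKM against 14.6 and 12.6 RPKM (2.60 ± 0.20, adjusted p = 3.5e-05). rbm26.L, an RNA-binding protein gene, held 3.11 and 4.79 RPKM in the controls and 24.5 and 26.3 RPKM in bCatMO (2.57 ± 0.18, adjusted p = 1.9e-05). Each of the 3 lay above all 5 controls, of which the highest held 14.8 RPKM of pbk.L, 4.45 RPKM of the CKAP5 match and 8.95 RPKM of rbm26.L.

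Smaller rises concerned genes of varied function. zfand2a.L, a stress-inducible proteasome-associated gene, held 27.1 and 25.8 RPKM in the controls and 72.9 and 85.2 RPKM in bCatMO (1.56 ± 0.12, adjusted p = 3.2e-05). pdia6.S, a disulfide isomerase of the endoplasmic reticulum, held 32.8 and 38 RPKM against 89.1 and 101 RPKM (1.41 ± 0.09, adjusted p = 6.8e-06). The histone deacetylase gene hdac2.S held 10.6 and 12.7 RPKM against 28.6 and 31.4 RPKM (1.34 ± 0.11, adjusted p = 6.3e-05). All 3 stood above the 5 controls.

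The remaining named rises were between 1.08 and 1.42. The match to ACLY, an enzyme of acetyl-CoA synthesis (row Xelaev18043093m), rose by 1.42 ± 0.11 (adjusted p = 3.6e-05), the calcium sensor gene stim1.S by 1.26 ± 0.14, the mitotic kinase gene plk1.L by 1.19 ± 0.14 and the syntaxin gene stx11.S by 1.08 ± 0.13. The homeolog plk1.S was called as well (0.54), while stim1.L (0.16) and stx11.L (-0.05) were not. plk1.L held 35.1 and 60.5 RPKM in controls 4 and 5 and 101 and 111 RPKM in bCatMO, but up to 95.8 RPKM in another control. Without the batch block the ACLY match, stim1.S, plk1.L, stx11.S and zfand2a.L did not pass. The LiCl and Sia values of the 39 higher rows, against the same controls, lay between -0.24 and 0.41, and 0 of them were called in either treatment.

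The frog genome holds 2 related subgenomes, so that many genes have a long (.L) and a short (.S) homeolog. Of the 132 rows, 65 had a homeolog among the rows tested, and 16 of the 65 (8 pairs) had a homeolog called in the same direction, while 0 had one called in the opposite direction. Of the 9 such rows of the dorsal and Nodal lists and the signature, 6 had a homeolog that was called. They form the nodal6, gsc and admp pairs, whose rows are each other's homeologs. Medians of these rows and of their homeologs share values and are not compared. The homeologs not called were foxa4.S (-1.87, beside -2.53 for foxa4.L), lefty.L (-1.81, beside -2.45 for lefty.S) and dkk1.L (-0.35, beside -1.34 for dkk1.S). For the 31 other lower rows the homeologs had a median of -0.17, and 6 were called. For the 25 higher rows they had a median of 0.13, and 4 were called. In pairs with both rows called, each row again counts on both sides. All these rows were chosen because they were called in the same libraries, so weaker values in their homeologs are partly expected from that choice.

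The difference itself was tested, in a comparison chosen after these values were seen, from the log2 ratio of the .L to the .S row in each library with limma and the same terms. Of 3440 pairs with both rows tested, 92 (2.67%) had a bCatMO effect that differed between the homeologs at an adjusted p of 0.05, and 422 did so at an unadjusted p of 0.05. In the same fit and against the same controls, 1 pair differed in LiCl (0.0291%) and 4 in Sia (0.116%). Without the batch block 14 pairs passed. Leaving out control 5, control 4, bCatMO 2 or bCatMO 1 left 39, 42, 42 and 54 pairs. In 52 of the 92 pairs neither homeolog was called on its own.

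Of the 28 pairs with a lower row outside the dorsal lists 18 differed, of the 23 pairs with a higher row 19, and of the 6 dorsal pairs 3. These pairs were picked through a row called in the same libraries, which makes a difference more likely among them than among all pairs. rbm26 showed the largest difference, of 2.66 ± 0.14 (adjusted p = 1.2e-06), since rbm26.S held 77.2 and 73.6 RPKM in controls 4 and 5 and 76.7 and 65.1 RPKM in bCatMO 1 and 2 while rbm26.L rose. psenen.L held 12.3 and 8.86 RPKM in the controls and 12.5 and 9.13 RPKM in bCatMO while psenen.S fell, a difference of 1.94 ± 0.12 (adjusted p = 2.1e-06). cdc34.S held 21.6 and 20.3 RPKM against 22.5 and 21.5 RPKM while cdc34.L fell (-1.29 ± 0.09, adjusted p = 3.8e-06). In each of these pairs 1 homeolog carried the change and the other differed little between the libraries.

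The CKAP5 match (2.52 ± 0.15, with 0.08 for the .S row) and supt6h (1.02 ± 0.07, with -0.06 for the .L row) were alike in this. In pdia6 (-1.08 ± 0.07) and hdac2 (-1.01 ± 0.12) the .S row rose, and the .L row of each had 0.33, in the same direction, without passing. The dorsal pairs that differed were nodal6 (-1.16 ± 0.17), gsc (-1.07 ± 0.21) and dkk1 (0.99 ± 0.20). In nodal6 and gsc both homeologs fell, and nodal6.S, starting from 4.28 and 3.5 RPKM, had less room to fall on the log2(RPKM + 0.5) scale than nodal6.L. The admp homeologs had a difference of 0.46 ± 0.13 that did not pass (adjusted p = 0.089). Homeologs are similar in sequence, and the rule for reads that fit both copies was not given in the sources used here.

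**Figure D4:**
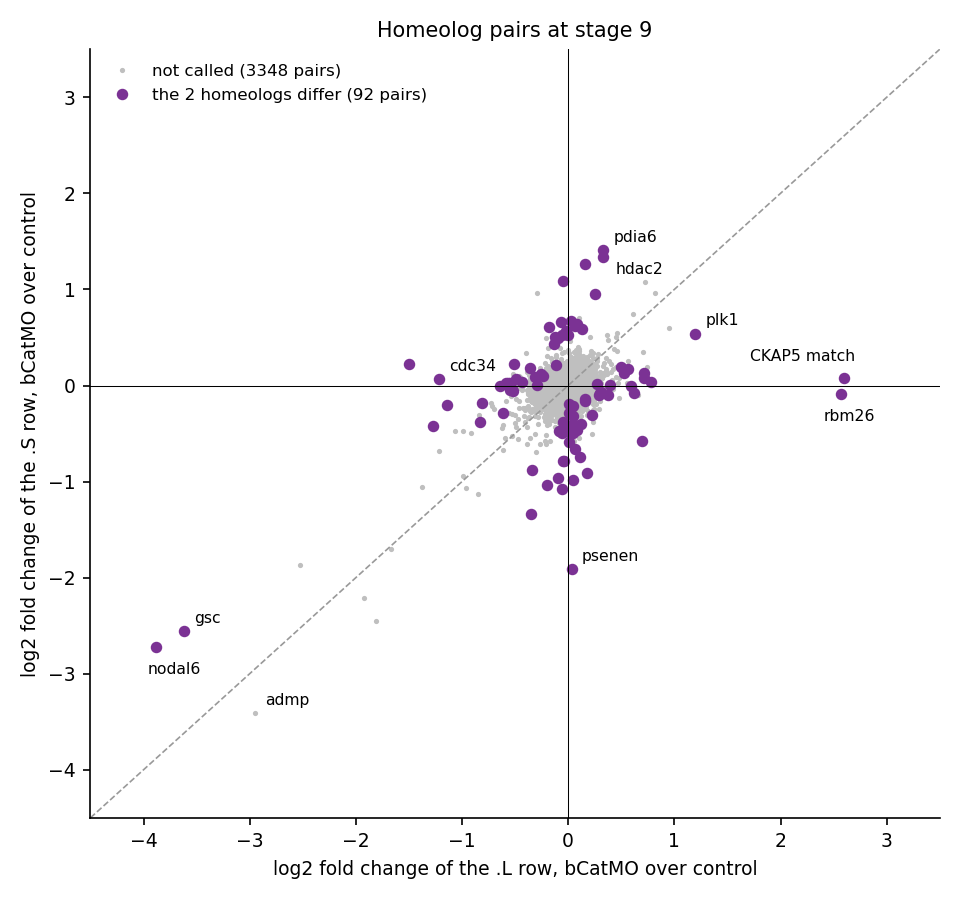
Log2 fold change of bCatMO over control in the .L row (x axis) and the .S row (y axis) of each of 3440 homeolog pairs at stage 9; filled purple points are the 92 pairs whose 2 values differed. nodal6, gsc and admp lie at the lower left, where both homeologs fell (the dashed line marks equal change), while rbm26, psenen and cdc34 lie along 1 axis, with the other homeolog near 0, and pdia6 and hdac2 lie at 0.33 on the x axis.

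At stage 10.5, the early gastrula, 3 other bCatMO libraries were compared with 3 controls of their batches. The tables of the 2 stages were normalized separately, so only the contrasts within each are set side by side. Of the 89 rows lower at stage 9 and tested at stage 10.5, 77 were lower again (86.5%), against 5.5% of all rows tested at both stages, and these 77 made up 8.56% of the 900 rows lower at stage 10.5. Of the 39 higher rows 29 were higher again (74.4%), against 2.03%, or 8.71% of the 333 rows higher then. None was called in the opposite direction. Of the 62 lower rows outside the dorsal lists 52 of the 61 tested were lower again, with a median of -0.65 at stage 10.5, and of the 31 dorsal rows 25 of 28. Dorsal rows not called again included lefty.S (-0.57, adjusted p = 0.24) and foxa4.L (-0.55, adjusted p = 0.058). The 31 dorsal rows include 24 rows of the authors' signature, which was drawn from stage 10.5 libraries of the same series with β-catenin depletion in view. That these were lower again largely follows from that choice and is not independent evidence. They also enter the 77 of 89.

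**Figure D5:**
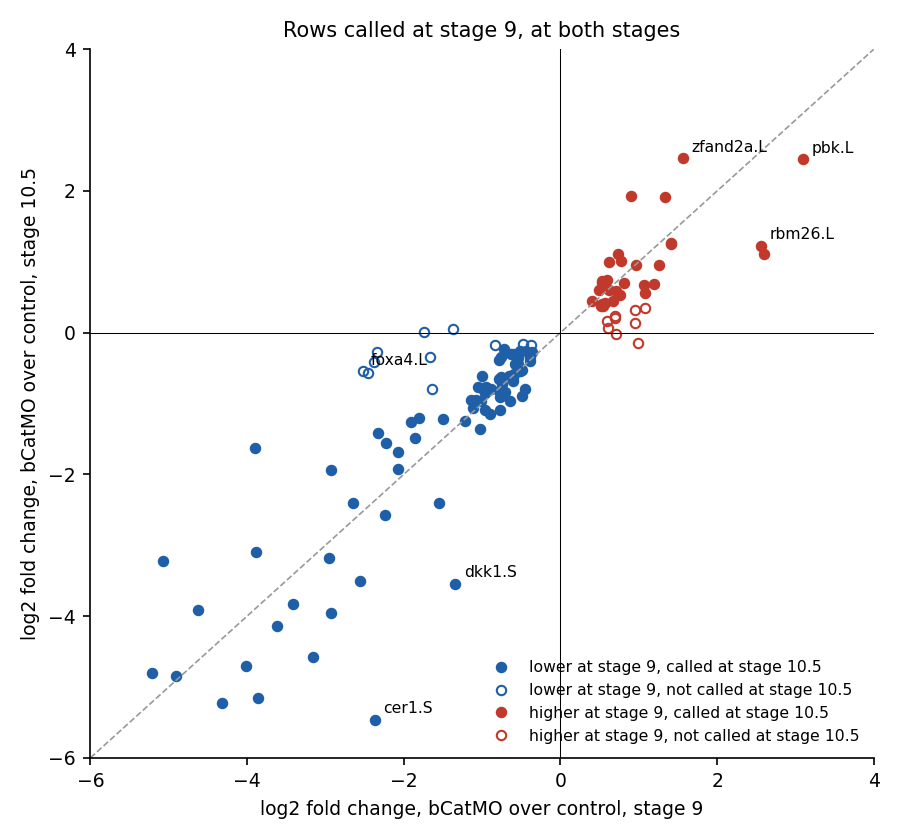
Log2 fold change of bCatMO over control at stage 9 (x axis) and stage 10.5 (y axis) of the rows called at stage 9 and tested at both stages, filled where the row was also called at stage 10.5; the dashed line marks equal change. No filled point lies in a quadrant of opposite signs, cer1.S lies well below the line (-2.36 and -5.46, with controls at 2.47 and 88.6 RPKM) and foxa4.L above it (-2.53 and -0.55).

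More rows were called at the later stage over the whole table, where 5.5% were lower and 2.03% higher, against 0.546% and 0.229% at stage 9, and counts of listed rows are read against these shares. Of the early targets 10 of 10 tested were lower at stage 10.5 and 13 of 15 at stage 9. Of the mesodermal rows 3 of 23 and 3 of 25 were lower, but these were different rows. mespb.L, mespa.L and fgf20.S, lower at stage 9, had -0.34, 0.06 and -0.79 at stage 10.5 without passing. The rows lower at stage 10.5 were dusp6.L and the tbx6 matches Xelaev18010507m and Xelaev18007613m. At stage 9 these had -0.24, -0.03 and 0.02. No endoderm row was called at either stage. Of neural plate rows 16 of 33 were lower at stage 10.5, against 0 of 34 at stage 9, of organizer transcription factors 7 of 14 against 3 of 15, and of antagonists 14 of 22 against 10 of 23. Not every antagonist row went this way: lefty.S and lefty.L, at -2.45 and -1.81 at stage 9, had -0.57 and -0.03 at stage 10.5 without passing. The test of the stage difference, described next, called neither (adjusted p = 0.25 and 0.37). Of the ventral BMP rows 4 of 25 were higher at stage 10.5 and 0 of 26 at stage 9. The stage 10.5 comparison had 1 more library in each group, and whether these counts differ between stages was not tested.

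The difference between the stages was tested row by row over 16377 rows, and 20 passed (0.122%). Without the batch block 2 passed, and leaving out 1 of the 4 stage 9 libraries left between 5 and 9. The pseudocount of 0.5 limits how far a row can fall, so that the difference depends on the control level at each stage, and the levels of the separately normalized tables are given beside the values. The log2 fold change was more negative at stage 9 for the DUXA match Xelaev18000885m (-3.90 against -1.62, difference -2.28 ± 0.28, adjusted p = 0.00041) and for sia2 row Xelaev18019205m (-5.07 against -3.23, difference -1.84 ± 0.31, adjusted p = 0.011). The controls held a mean of 8.28 RPKM of the DUXA match at stage 9 (controls 4 and 5) and 1.16 RPKM at stage 10.5, and 18.4 and 4.22 RPKM of sia2. Both stage 10.5 values are close to the largest fall that these control levels allow, so the differences do not show a larger loss at stage 9.

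The log2 fold change of cer1.S was more negative at stage 10.5 (-2.36 against -5.46, adjusted p = 0.0099). Its controls held a mean of 2.47 RPKM at stage 9, where 1.56% and 2.35% of the control remained, and 88.6 RPKM at stage 10.5, so that this difference too does not show a larger loss. The forkhead gene foxd3.L, at 0.22 and -1.89 (adjusted p = 0.035), held 0.765 RPKM in the stage 9 controls and 4.47 RPKM in those of stage 10.5. Rows that kept well over the floor at stage 9 were dkk1.S (-1.34 against -3.54, adjusted p = 0.0036), dkk1.L (-0.35 against -1.99, difference 1.64 ± 0.28, adjusted p = 0.0099) and the membrane protein gene lrig3.L (-0.84 against -2.65, adjusted p = 0.0099). At stage 9 bCatMO 1 and 2 held 1.44 and 1.76 RPKM of dkk1.S, 3.47 and 3.13 RPKM of dkk1.L and 3.36 and 1.28 RPKM of lrig3.L.

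Of the higher rows, rbm26.L (2.57 against 1.23, difference 1.34 ± 0.22, adjusted p = 0.0099) and the CKAP5 match Xetrov90010211m.L (2.60 against 1.11, difference 1.48 ± 0.27, adjusted p = 0.015) had the higher log2 fold change at stage 9, and zfand2a.L (1.56 against 2.46, difference -0.90 ± 0.15, adjusted p = 0.0099) had it at stage 10.5. Controls held a mean of 3.95 RPKM of rbm26.L at stage 9 and 1.99 RPKM at stage 10.5. For the CKAP5 match these means were 1.95 and 5.14 RPKM, and for zfand2a.L 26.4 and 12.2 RPKM. At low levels the scale understates a rise, more so at stage 10.5 for rbm26.L and at stage 9 for the CKAP5 match. foxa4.L, at -2.53 and -0.55, did not pass the test of the difference (adjusted p = 0.071).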

How the data were processed

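PolyA-selected RNA of whole embryos had been sequenced by the authors as 100-base single-end reads, per the labels' protocols. The authors deposited RPKM per gene model in 1 table for each stage, per the file headers. The submitters' processing notes list TopHat2 2.09 and DESeq without saying what each did. Genome build, annotation version, counting rule and strand handling were not given in the sources used here. Gene names came from the tables, for matches from the description of the best match. Whole reads were recovered from the RPKM steps: 100% of 30836 rows above 0 in at least 5 libraries came out whole within 0.005, and limma-voom on these reads called 137 rows. Reads in genes ranged from 27.9 M to 58.5 M per library.

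RPKM are not counts, so a linear model of log2(RPKM + 0.5) on group and labelled batch was fitted to all 17 stage 9 libraries with limma 3.58.1 (R 4.3.3), using trended empirical Bayes variances and 7 residual degrees of freedom. A row needed 1 RPKM in at least 2 of the 4 libraries and was called at a two-sided Benjamini-Hochberg adjusted p below 0.05. The pairing comes from the labelled batch. Across rows, the difference between controls 4 and 5 correlated with that between bCatMO 1 and 2 at 0.917. Stage 10.5 was fitted in the same way within its own table, with 19 libraries and 8 residual degrees of freedom, and stage differences were tested with Satterthwaite degrees of freedom. Homeolog pairs were tested on the log2 ratio of .L to .S. The stage 9 fit and the homeolog test were checked on simulated counts, which had the same dispersion for all rows. Spread differs between the real rows, so that check does not give the rate of false calls among them. The test of the stage difference was not checked in this way.

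Named are ctnnb1, the 20 lowest and the 10 highest called rows with a gene name and the same sign in both pairs, and members of the lists. Other rows were chosen after their values were seen. The comparison and the lists were chosen with earlier results of these data known. Other pseudocounts, filters, scalings, sets of libraries and a fit without the block were tried. Figures were drawn with matplotlib 3.10.9.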

Additional observations from a re-analysis of the deposited data

Results flagged for a closer look

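Among the 5 stage 9 controls, nodal3 row Xelaev18018867m held 20.4 RPKM in control 5 and between 30.9 and 34.6 RPKM in the other 4. The gap, 0.786 of the range, exceeded Dixon's 95% critical value of 0.71. It was the only such gap among 32 rows examined, and chance gives about 1 in 20 groups. Control 5 is one of the 2 paired controls of the comparison.

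The log2(RPKM + 0.5) fold change of 5 named rows in bCatMO differed between stage 9 and stage 10.5 by the test of the difference itself. Stage 9 minus stage 10.5 was -2.28 for the DUXA match Xelaev18000885m, -1.84 for sia2 row Xelaev18019205m, -0.90 for zfand2a.L, 1.34 for rbm26.L and 1.48 for the CKAP5 match Xetrov90010211m.L, on the log2 scale. For the DUXA match and sia2 the pseudocount limits the fall at stage 10.5, where the controls held 1.16 and 4.22 RPKM, so these 2 differences do not show a larger loss at stage 9.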

How the results depend on the processing

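The direction of all 30 named rows was the same under the 14 alternatives run, and counts of calls moved with the replicate block, the filter and the set of libraries. Without the replicate block 51 rows passed (44 lower, 7 higher), 2 rows differed between stages and 14 homeolog pairs differed. With the 4 paired libraries alone and the pair as a block, 407 rows passed (258 lower, 149 higher) on 1 residual degree of freedom, and 23 were higher with batches 4 and 5 alone. With bCatMO and the 5 controls without a block 12 passed, all lower and 0 higher (388 rows had an unadjusted p under 0.05), among them 9 of the 26 rows of the early target, organizer factor and antagonist lists, and 10 of the 30 named rows were called. With no filter on low values 84 passed (58 lower). Leaving out each of the 4 libraries gave between 51 and 76 calls (34 to 59 lower, 17 to 20 higher), the fewest without control 4. It left 17 to 24 of the 26 listed rows, 26 to 30 named rows, 5 to 9 stage differences and 39 to 54 homeolog pairs. Other pseudocounts, size factors and voom on recovered reads gave between 128 and 138 calls. The ctnnb1 row Xelaev18033202m, at -0.01, turned to 0.022 without the block and with the 5 controls alone, and lay between -0.034 and 0.0052 when 1 library was left out (0.0029 without bCatMO 1, 0.0052 without control 4). The cause of these shifts was not tested. Rows with few reads in bCatMO, such as sia2, are limited by depth to the counting intervals given.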
